A study of Bienertia sinuspersici with 9 samples.

Results

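Transcripts of PEPC1, PPDK and PPA1 were followed through leaf development in Bienertia sinuspersici, a plant that runs C4 photosynthesis inside single cells. A unigene is a transcript of the de novo assembly, and the 3 genes are the unigenes BS15679_c0_g1_i1 (PEPC1, phosphoenolpyruvate carboxylase), BS50819_c1_g1_i1 (PPDK, pyruvate phosphate dikinase) and BS12153_c0_g1_i11 (PPA1). They were picked by these identifiers, with earlier results of these data known, out of 11709 unigenes in the normalized table and 36907 in the full table, and all 3 were measured in every library. The name PPA1 comes from the closest Arabidopsis protein, a soluble inorganic pyrophosphatase, and is no more than a best match. Each of the 3 was the 1 unigene carrying its assembly cluster number in either table. Unigenes of the same enzyme types under other cluster numbers were not searched for.

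RNA of wild-type leaves was sequenced at 3 stages, young, intermediate and mature, with 3 biological replicates each, so that 9 libraries were compared. The plants were raised on agar medium and moved to soil in a greenhouse, where they received salt water, and leaves of all stages were taken from plants a few months old. Mature leaves were sampled at the tip and the younger ones were not, so stage and leaf part cannot be told apart where mature leaves are compared. Which plants went into each replicate is not stated in the sources used here, and p-values therefore measure the spread between these libraries. RNA came from leaf tissue with all its cell types, so a larger number of green cells and more transcript per green cell cannot be told apart either.

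In C4 photosynthesis CO2 is first fixed into a compound with more carbon atoms, which is moved and then broken down to release CO2 beside Rubisco. PEPC1 carries out that first fixation in the cytosol, joining bicarbonate to phosphoenolpyruvate to make oxaloacetate. PPDK works in chloroplasts at the other end of the cycle, turning pyruvate back into phosphoenolpyruvate with ATP and phosphate, and it releases pyrophosphate. A soluble pyrophosphatase splits pyrophosphate into phosphate, which in C4 chloroplasts pulls the PPDK reaction forward. The Arabidopsis protein that gave PPA1 its name is known as a cytosolic enzyme, so the match itself does not place this unigene in the chloroplast. In Bienertia the released CO2 comes from NAD-malic enzyme in mitochondria, and the chloroplasts at the cell edge and those at its centre have different tasks.

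PEPC1 and PPDK were also targets of qRT-PCR. The primer pairs are shown, from 5′ to 3′ in lower case, as the paper lists them under both names. No transcript sequence was at hand, so their place on the unigenes was not checked.
PEPC1 forward: cccgctttgttgagtacttcc
PEPC1 reverse: gcttccgatattcatgcgtcc
PPDK forward: gggattggctttctcttaatgga
PPDK reverse: aggtggtgaaagcggttcttt
The primers are 21 to 23 bases long, and both of the PEPC1 pair hold 52.4% G and C, against 43.5% and 47.6% for the PPDK pair. These genes were picked for qRT-PCR with the libraries in hand, so their place on that list is not independent evidence of a change.

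Values are TPMTMM. They start from TPM, a relative level corrected for transcript length that sums to the same total in each library, and are multiplied by 1 factor per library from the trimmed mean of M values (TMM). Read counts were not used here, and how many reads stand behind a unigene's value is unknown. Along the first dimension of a classical scaling of the libraries the stages followed the order of development. The second dimension, which carried 18.2% of the positive eigenvalues, divided the libraries within every stage. Young 3, intermediate 3, mature 2 and mature 3 lay on its negative side, and the other 5 libraries on its positive side. The stage labels were also read against marker lists. Summed over 5 genes of dividing cells, the level was 80.8 to 98.9 TPMTMM in young, 60.4 to 64.9 in intermediate and 34.5 to 40.6 in mature libraries. Summed over 6 genes of green leaf tissue, it was 1320 to 1786, 2178 to 2635 and 3425 to 4989. Summed over 4 epidermis and cuticle markers, it was 380 to 469, 448 to 476 and 262 to 295, and CER1 of this list, a wax synthesis gene in Arabidopsis, was near 0 in mature libraries, at 0.65 to 1.59 TPM. CER1 was the extreme of this list. From young to mature the mean of KCS1 went from 146 to 59.4 TPMTMM, that of KCS2 from 140 to 116 and that of GPAT4 from 116 to 98.5. KCS2 and GPAT4 were not called as changed over that course in the test described below. The first 2 sums separated the 3 stages, and PSAD2 makes up most of the sum for green leaf tissue. These lists were chosen with earlier results of these data known, so the separation is a description and no check of the labels. Between 2 stages, 18.2% to 28.0% of single unigenes were higher in every library of the later stage, and 15.7% to 29.3% were lower. The epidermis and cuticle sum overlapped between young and intermediate libraries and was lower in mature ones. The part of tissue makeup in the changes of PEPC1 and PPDK was not tested.

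PEPC1 and PPDK were already abundant in young leaves and rose together at both steps, whereas PPA1 stood far below them and overlapped among all stages. In young libraries 1, 2 and 3, PEPC1 had 1303, 1269 and 1476 TPMTMM. In intermediate libraries it had 2230, 2274 and 3960 TPMTMM. In mature libraries it reached 9098, 9965 and 10033 TPMTMM. The stages did not overlap, and intermediate 3 lay well above the other two of its stage. The stage means were 1349 ± 111, 2821 ± 986 and 9699 ± 521 TPMTMM (SD, n = 3), which put mature leaves 7.19 times above young leaves.

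PPDK followed the same course. It had 1154, 1119 and 1276 TPMTMM in young libraries 1, 2 and 3. The intermediate libraries held 2171, 2105 and 3525 TPMTMM, again with the third above the other two. The mature libraries held 6864, 7105 and 7123 TPMTMM and lay close together. The stage means of 1183 ± 82.6, 2601 ± 802 and 7031 ± 145 TPMTMM (SD, n = 3) gave a 5.94-fold higher level in mature than in young leaves. The highest mature library exceeded the lowest by 1.04-fold for PPDK and by 1.10-fold for PEPC1, where the median unigene had 1.33.

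PPA1 did not sort by stage. Young libraries 1, 2 and 3 had 80.6, 78.2 and 32.4 TPMTMM of it. Intermediate libraries had 154, 156 and 57.9 TPMTMM. Mature libraries had 350.3, 61.5 and 52.2 TPMTMM. All 3 stages overlapped, mature 2 and 3 fell below young 1 and 2, and mature 1 alone was above every other library. The stage means were 63.7 ± 27.2, 123 ± 56.1 and 155 ± 170 TPMTMM (SD, n = 3). The highest mature library was 6.71 times the lowest, a wider spread than 99.2% of unigenes had in that stage.

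**Figure D1:**
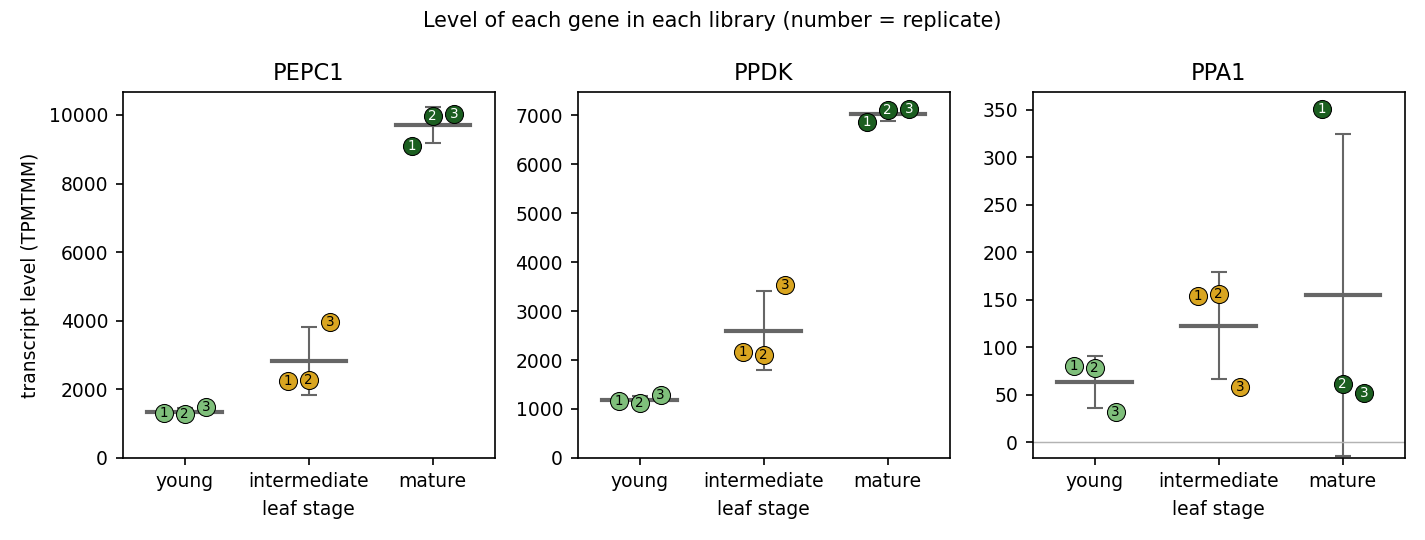
Level of PEPC1, PPDK and PPA1 (TPMTMM, linear axes that differ between panels) in the 9 libraries by leaf stage, with the replicate number in each point, a bar at the stage mean and an error bar of 1 SD (n = 3). PEPC1 and PPDK separate the 3 stages, with mature libraries at 9098 to 10033 and 6864 to 7123, while PPA1 overlaps in all stages and reaches 350.3 in mature 1 alone; its SD in mature leaves is larger than its mean.

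Seen by their place among all transcripts, PEPC1 and PPDK moved from high to near the top. Among 36907 unigenes ranked by TPM within a library, PEPC1 held ranks 39 to 53 in young, 12 to 22 in intermediate and 7 to 11 in mature libraries. PPDK held ranks 49 to 63, 15 to 25 and 12 to 15. PPA1 ranged from rank 1546 to 4273 in young leaves, 826 to 2389 in intermediate leaves and 430 to 2952 in mature leaves, so its ranks overlapped throughout.

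As a share of all TPM, PEPC1 made up 0.157% ± 0.0099 of young, 0.299% ± 0.0842 of intermediate and 0.772% ± 0.0362 of mature libraries (SD, n = 3). PPDK made up 0.138% ± 0.00695, 0.276% ± 0.0667 and 0.560% ± 0.016. Together the 2 genes took 0.295% ± 0.0169 of TPM in young leaves and 1.33% ± 0.0488 in mature leaves. These shares need no scaling between libraries, and by them PEPC1 rose 4.91-fold and PPDK 4.06-fold on the means from young to mature. For both genes each comparison of 2 stages gave p = 0.1 in the two-sided exact permutation test, which is the smallest value that 3 against 3 libraries allow (0.15 adjusted over the 9 comparisons of shares). The share of PPA1 was 0.00734%, 0.0133% and 0.0124% at the 3 stages, and its exact permutation p lay between 0.3 and 0.8.

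From young to intermediate leaves PEPC1 and PPDK rose and PPA1 did not pass the test. Changes were tested with limma on log2(TPMTMM + 1) over all 11709 unigenes, with Benjamini-Hochberg adjustment and a threshold of 0.05. PEPC1 rose by 1.01 on the log2 scale (standard error 0.24, adjusted p = 0.047 from limma) and PPDK by 1.10 (standard error 0.22, adjusted p = 0.030 from limma). The difference for PPA1 was 0.91 with a standard error of 0.73, a 95% interval from -0.76 to 2.58 and an adjusted p of 0.57 from limma. Thus 2 of the 3 genes were called as risen, where 2.99% of all unigenes were. In the same 2 genes every intermediate library was above every young one, which held for 18.2% of unigenes. By size of the log2 difference PPDK ranked 38, PEPC1 51 and PPA1 84 among 11709 unigenes.

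The call for PEPC1 at this step was narrow. It was lost when any 1 library other than mature 1 was left out, with log2 changes of 0.74 to 1.16 and adjusted p-values of 0.0618 to 0.144 from limma. Without intermediate 3 the change was 0.74 for PEPC1 and 0.86 for PPDK. PPDK kept its call without that library (adjusted p = 0.0435 from limma) and lost it without young 1, young 2, young 3 or intermediate 1, where the change was 1.06 to 1.20 and the adjusted p 0.0724 to 0.102 from limma. The direction held in every one of these fits.

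Same-numbered young and intermediate libraries deviated from their stage means in the same sense, and once a fit of these stages carried the pairs as a block, PPA1 passed the test. It then rose by 0.91 with a standard error of 0.08 and an adjusted p of 0.0016 from limma. With a replicate block over all 9 libraries PPA1 was not called at this step (0.91, standard error 0.44, adjusted p = 0.26 from limma). Within the pairs, PPA1 went from 80.6 to 154, from 78.2 to 156 and from 32.4 to 57.9 TPMTMM, a gain in 3 of 3. No label pairs the stages. The pairs were taken because of deviations in the same values that were then tested, so this call is a description. Young 1 and 2 correlated better with intermediate 2 and 1 (0.508 and 0.547) than with the libraries of their own number (0.467 and 0.445). The block raised the number of risen unigenes at this step from 350 to 1510 and of fallen unigenes from 323 to 1099, while PEPC1 and PPDK remained called.

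**Figure D2:**
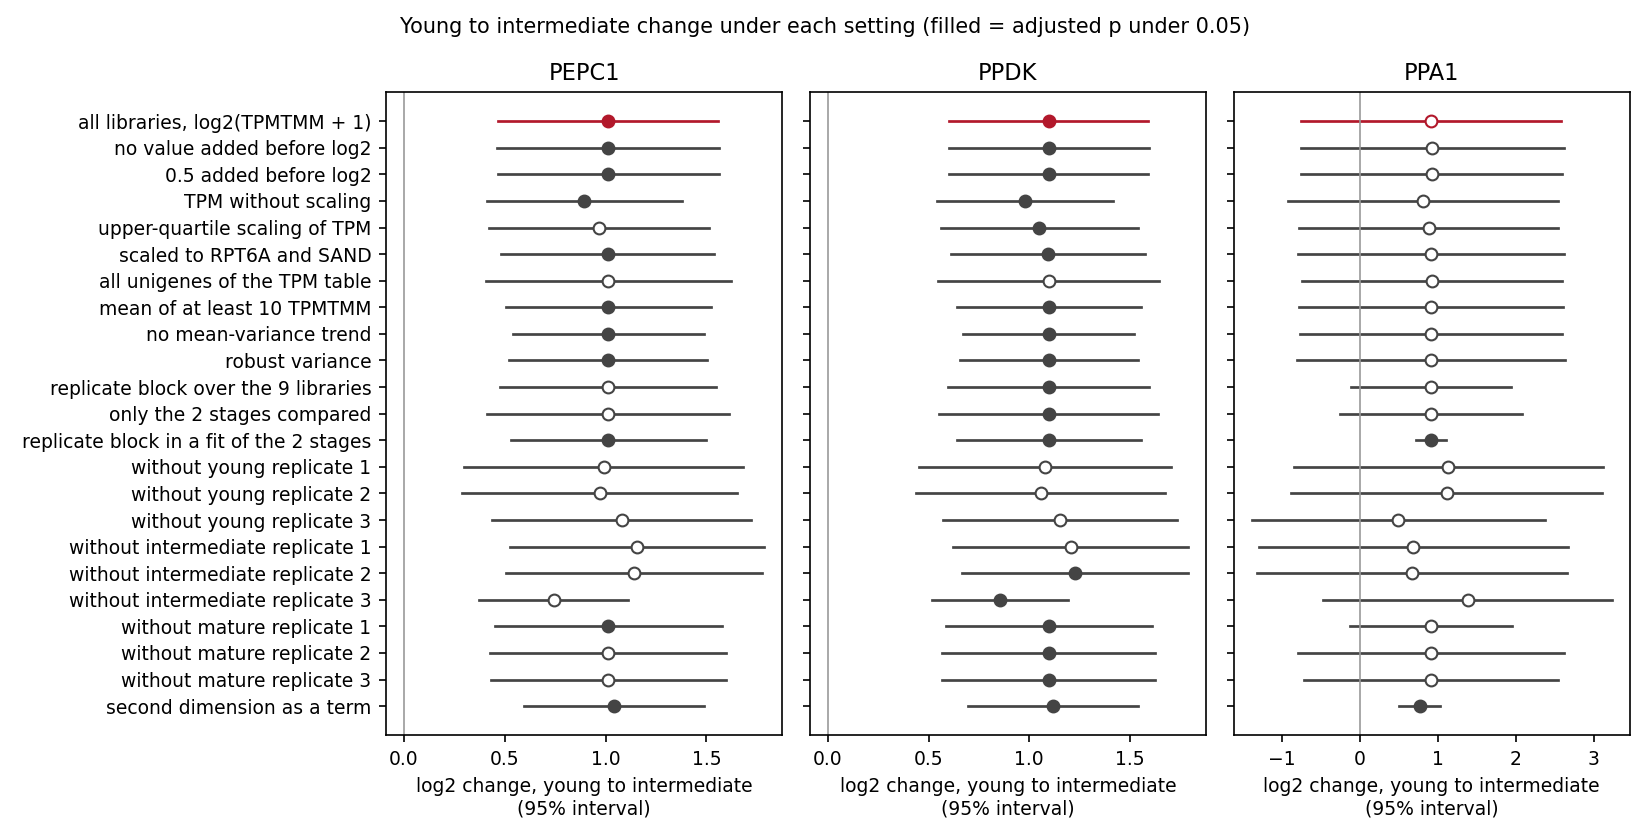
Log2 change from young to intermediate leaves (x axis, points, with 95% intervals from limma) of PEPC1, PPDK and PPA1 under each way of processing or leaving out a library (y axis), where filled points have an adjusted p under 0.05 and the top row in red uses all libraries. PEPC1 stays between 0.74 and 1.16 but crosses the threshold in many settings, and the interval of PPA1 reaches below 0 except where the replicate block of the 2 stages (0.91) or the second dimension (0.76) is a term.

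From intermediate to mature leaves PEPC1 and PPDK rose further. Their log2 changes were larger than those of the first step, a difference that was not tested. PEPC1 rose by 1.83 (standard error 0.24, adjusted p = 0.00079 from limma) and PPDK by 1.48 (standard error 0.22, adjusted p = 0.0013 from limma) on the log2 scale. PPA1 differed by -0.10 (standard error 0.73, 95% interval -1.77 to 1.57, adjusted p = 0.94 from limma). The 2 called genes stand against 16.1% of all unigenes called as risen at this step. Every mature library exceeded every intermediate library in these 2 genes and in 21.8% of unigenes. By this log2 difference PEPC1 ranked 110, PPDK 231 and PPA1 6914 of 11709. For PPA1 the sign turned with single libraries, from -0.97 without mature 1 to 0.39 without mature 3, and it was also above 0 without mature 2 (0.28), intermediate 1 (0.13) or intermediate 2 (0.14), with no call in any of these.

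Over the whole course from young to mature, PEPC1 rose by 2.85 (standard error 0.24, adjusted p = 3.1e-05 from limma) and PPDK by 2.57 (standard error 0.22, adjusted p = 3.1e-05 from limma). Both were higher in all 3 mature libraries than in any young one. The difference for PPA1 was 0.81 (standard error 0.73, 95% interval -0.86 to 2.48, adjusted p = 0.39 from limma), and it was -0.056 without mature 1. In this comparison 24.2% of unigenes rose, and 28.0% had every mature library above every young one, so a rise as such is common, but PEPC1 ranked 56 and PPDK 89 of 11709 by its size. On the log2 scale the first step made up 35.6% of the change of PEPC1 and 42.6% of that of PPDK. In TPM without scaling, where the median of all unigenes shifted by -0.57, PEPC1 still rose by 2.30 and PPDK by 2.02.

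PEPC1 gained on PPDK in the last step, although the 2 genes ran almost in parallel. Because TPM corrects for length, their levels can be set against each other within a library. The ratio of PEPC1 to PPDK was 1.13, 1.13 and 1.16 in young libraries. It was 1.03, 1.08 and 1.12 in intermediate libraries. It was 1.33, 1.40 and 1.41 in mature libraries. PEPC1 exceeded PPDK in all 9 libraries, and the mature ratios lay above all others. On the log2 scale the mature ratio was 0.27 above the young one, and the ratio differed among the stages with p = 0.00357 in an exact permutation test over 280 partitions, the smallest that this test can give (0.0107 adjusted over 3 ratios). With any 1 library left out the difference was 0.26 to 0.30. The young and intermediate ratios did not overlap either, with means of 1.14 ± 0.0145 and 1.08 ± 0.0482 (SD, n = 3), but 3 against 3 libraries cannot give an exact p under 0.1.

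The ratio of PPA1 to PPDK averaged 0.055 ± 0.0257 over young, 0.0538 ± 0.0324 over intermediate and 0.0223 ± 0.0249 over mature libraries (SD, n = 3). Among the single libraries it ran from 0.00733 in mature 3 to 0.0743 in intermediate 2. In mature 2 and 3 it was below every young and intermediate library, and in mature 1 it was 0.051, within their range. A difference among the stages did not pass the exact permutation test (p = 0.282, also after adjustment over 3 ratios), and neither did one in the ratio of PPA1 to PEPC1 (exact permutation p = 0.164, adjusted 0.246).

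**Figure D3:**
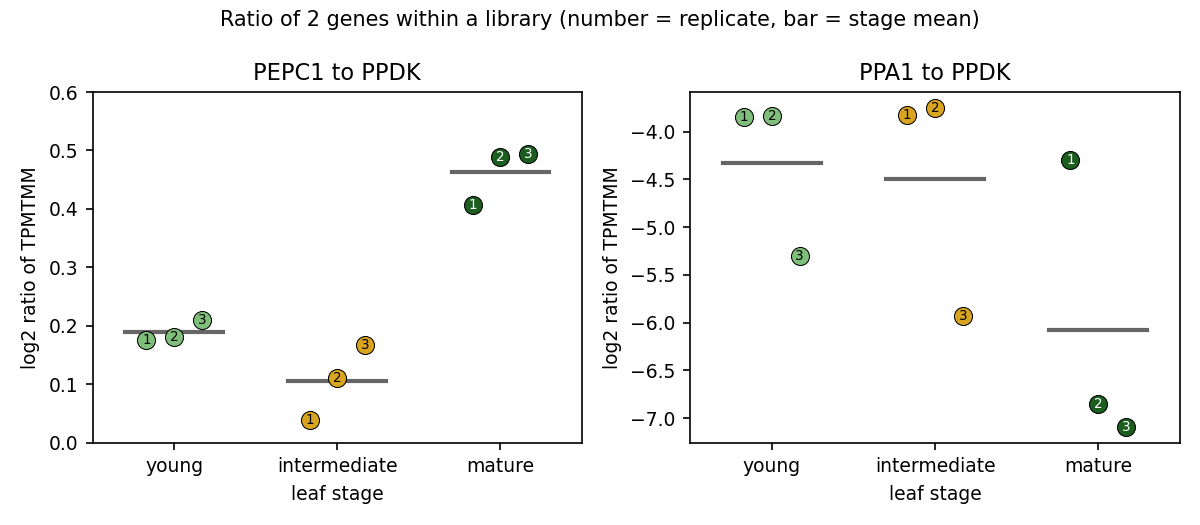
Log2 ratio of TPMTMM within each library for PEPC1 to PPDK and for PPA1 to PPDK (y axes, which differ between panels) by leaf stage, with the replicate number in each point and a bar at the stage mean. The PEPC1 to PPDK ratio is highest in the 3 mature libraries, 0.27 above young on the mean, while the PPA1 to PPDK ratio falls into a higher and a lower set of libraries within every stage.

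The other listed enzymes of the cycle moved in the direction of PEPC1 and PPDK but by less. ALA-AT2, to which the paper gives the largest rise among its C4 enzymes, was not on this list. The 7 listed were also qRT-PCR targets, picked with the libraries in hand, so counts over them are not independent evidence. Of these 7 other C4 enzymes, 4 rose from young to intermediate, 6 from intermediate to mature and 7 from young to mature. Among all unigenes 2.99%, 16.1% and 24.2% rose. The median log2 changes of the 7 enzymes were 0.76, 1.02 and 1.88, where the median of all unigenes was -0.00, -0.00 and -0.02. NAD-ME2, the mitochondrial malic enzyme that releases CO2, had 727 ± 23.0 TPMTMM in young and 2690.4 ± 144 in mature leaves (SD, n = 3) and rose by 1.88 from young to mature (adjusted p = 0.00016 from limma). CAb2, a carbonic anhydrase, the enzyme type that supplies bicarbonate to PEPC, rose by 2.08. The aspartate aminotransferases ASP-AT1 and ASP-AT2, which interconvert oxaloacetate and aspartate, rose by 1.90 and 1.96. The cytosolic malate dehydrogenase cMDH1 rose least, by 0.43 (adjusted p = 0.010 from limma), and the mitochondrial mMDH2 by 0.87. In TPM without scaling cMDH1 had a difference of -0.11, so its direction depended on the scaling, while the rise of NAD-ME2 (1.34) did not.

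At the first step the count of these enzymes was unsteady, from 0 to 6 of 7 over the other ways of processing. It ran from 3 to 7 at the second step and from 6 to 7 over the whole course. The paper names more carriers for the cycle, among them BASS2 and PPT1, than the 3 listed here, which were also qRT-PCR targets. Of these 3 carriers, 1 rose at the first step, 2 at the second and 3 over the whole course, where 2.99%, 16.1% and 24.2% of all unigenes rose. The first count was as unsteady, from 0 to 3 with single libraries left out and over the other settings, and the second ran from 0 to 2. The count over the whole course ran from 2 to 3 over the other settings. Among these carriers, the triose phosphate translocator TPT rose by 1.46 and the mitochondrial carrier UCP1 by 1.25 from young to mature leaves. The remaining carrier, DTC, rose by 0.56, but its mean without scaling was 269.9 TPM in young and 272.3 in mature leaves, so its rise depended on the scaling. PDH-E1_ALPHA, which belongs to the pyruvate dehydrogenase of plastids and like PPDK uses pyruvate there, fell by 0.73 from intermediate to mature leaves (adjusted p = 0.0017 from limma) and by 0.52 from young to mature leaves. The reference genes RPT6A and SAND were not called in any comparison, with log2 changes from young to mature of -0.06 and -0.04. No other C4 enzyme, carrier or reference gene shown here had a log2 change from young to mature as large as those of PEPC1 or PPDK, a difference that was not tested gene against gene.

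**Figure D4:**
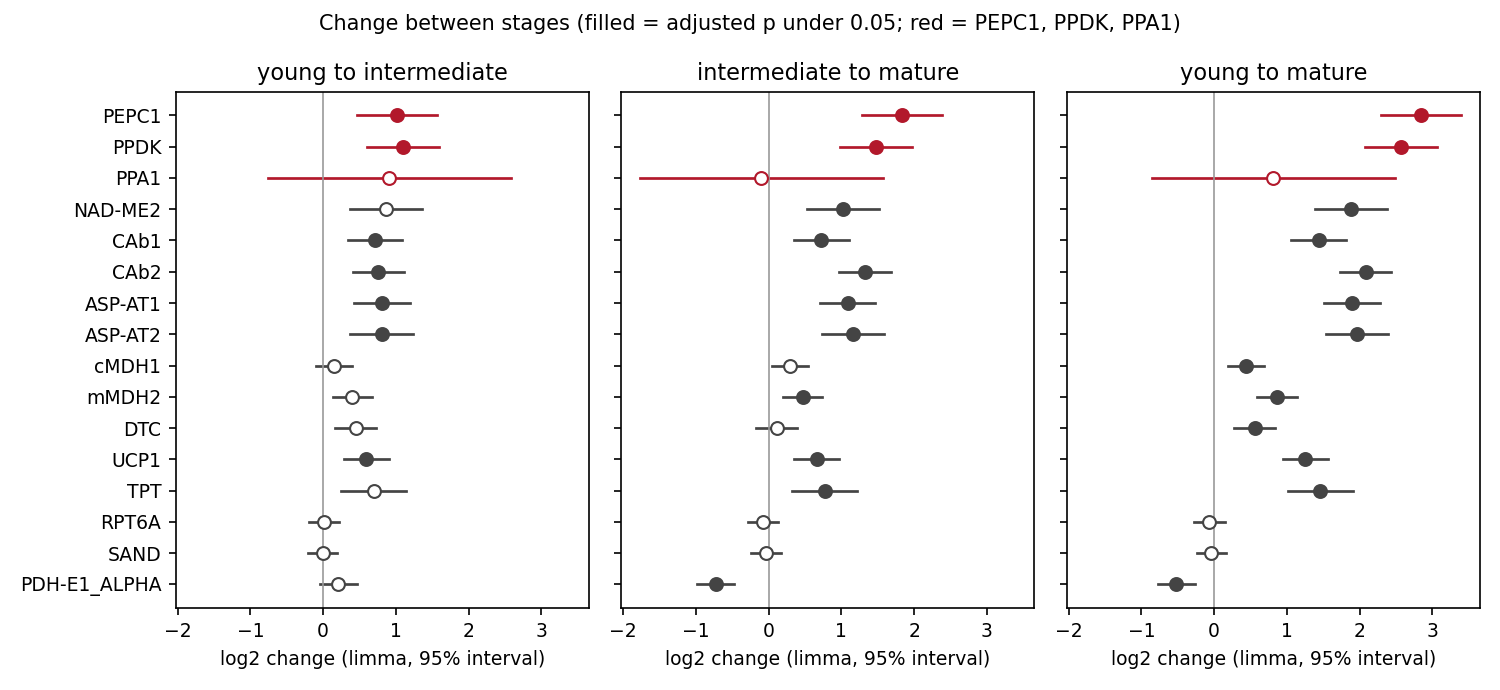
Log2 change (x axis, limma, with 95% intervals) of PEPC1, PPDK and PPA1 in red and of other C4 enzymes, carriers, the reference genes RPT6A and SAND, and PDH-E1_ALPHA in grey for the 3 comparisons of stages, where filled points have an adjusted p under 0.05. Among the genes shown, PEPC1 and PPDK lie farthest to the right from young to mature (2.85 and 2.57), and the interval of PPA1 is the widest and spans 0 in every panel.

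Intermediate 3 stood apart for several of these genes at once. Against the mean of intermediate 1 and 2 it held 1.76 times as much PEPC1, 1.65 times as much PPDK and 1.76 times as much NAD-ME2. In TPMTMM it was the highest intermediate library for 6 of the 7 other C4 enzymes, the exception being cMDH1 at 0.925 times, and for 5 of 6 markers of green leaf tissue. PPA1 was the reverse, with 0.374 times the mean of the other two. Both counts depended on the scaling. In TPM, mMDH2 was higher in intermediate 1 (963 against 956), and the green tissue marker HCAR was lowest in intermediate 3 (40.3, against 43.7 and 42.3). The share of all unigenes that were highest in intermediate 3 was not counted. On the first dimension intermediate 3 lay nearer to the mature libraries (0.04, against 0.107 and 0.114 for the other two). The part that this position has in its levels was not tested.

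PEPC1 and PPDK had almost the same profile over the 9 libraries, with r = 0.997 between their log2 values. The libraries are the same for all genes and share their 3 stages, so such a value is a description. Among 8063 unigenes with a mean of at least 10 TPMTMM, PPDK was the one most like PEPC1. The named genes next to PEPC1 were ASP-AT1 (r = 0.990) and CAb2 (r = 0.989). For PPDK the unigene with the highest value was BS98641_c0_g1_i1 (r = 0.998), which has no name here, with 49.7, 45.4 and 50.8 TPMTMM in young and 117, 117 and 117 in mature libraries. After PEPC1, the named genes most like PPDK were ASP-AT1 (r = 0.995) and NAD-ME2 (r = 0.994).

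PPA1 shared little of this course. Its correlation over the 9 libraries was 0.218 with PPDK and 0.180 with PEPC1. The named genes most like it were PLIP2, a plastid lipase in Arabidopsis (r = 0.974), NAC002, a stress-related transcription factor in Arabidopsis (r = 0.958), and MCCA, a subunit of the mitochondrial methylcrotonyl-CoA carboxylase of leucine breakdown (r = 0.937). PLIP2 had 20.6, 17.7 and 5.25 TPMTMM in young, 25.8, 25.5 and 9.99 in intermediate and 53.0, 11.1 and 10.4 in mature libraries 1, 2 and 3. As for PPA1, the third young and the third intermediate library were low, and mature 1 was far above mature 2 and 3. The unigene most like PPA1 was BS2995_c0_g1_i2 (r = 0.992), which has no name here and reached 93.8 TPMTMM in mature 1 against 43.1 and 40.5 in the other mature libraries.

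The spread of PPA1 within stages followed the second dimension. Its deviations from the stage means correlated with that dimension with r = 0.988 over 9 libraries, and 75 of 8063 unigenes (0.93%) had an absolute value at least as high, with a median of 0.669. For PEPC1 the value was -0.703 and for PPDK -0.636. The dimension was made from the same table, so this too is a description. The residual SD of PPA1 in the limma fit was 1.08 on the log2 scale, above that of 99.2% of unigenes, where PEPC1 had 0.28, PPDK 0.25 and the median unigene 0.19.

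Of 6 listed stress and cell death genes, some had the pattern of PPA1 and others did not. PLIP2, NAC002 and CATHB2, a cathepsin B-like protease, were lowest in young 3 and intermediate 3 and highest in mature 1 within their stages, as PPA1 was. The share of all unigenes with this pattern was not counted. Deviations along the second dimension were common, with a median absolute r of 0.669 over 8063 unigenes. PLIP2 and NAC002 are also among the named genes most like PPA1 above, so their pattern is no separate evidence. CATHB2 had 638 TPMTMM in mature 1 against 255 and 210.1 in mature 2 and 3. AMC1, a metacaspase, was lowest in young 3 and highest in mature 1, but in the intermediate stage its lowest library was the second (6.37 TPMTMM, against 6.99 in the third). LFG4 ran the other way in every stage, with 1.18 times the mean of the other libraries in young 3, 1.48 times in intermediate 3 and 0.499 times in mature 1. VAD1 was highest in young 3 (1.15 times) and in mature 1 (1.14 times). Rounding weighs on such low values. In TPM, VAD1 had 8.15, 8.43 and 8.56 in young libraries 1, 2 and 3, and AMC1 had 5.97 in intermediate 2 against 6.10 in intermediate 3.

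Summed over the 6 genes, the level was 305, 321 and 178 TPMTMM in young, 419, 412 and 254 in intermediate and 976, 444 and 378 in mature libraries 1, 2 and 3. CATHB2 and NAC002 make up most of these sums, which within each stage are low where PPA1 is low. Between stages this did not hold. Mature 2 and 3 had larger sums than young 1 and 2 but less PPA1 (61.5 and 52.2 against 80.6 and 78.2 TPMTMM). Of the 6 genes 3 rose from young to mature and 2 from intermediate to mature, with adjusted p under 0.05 from limma, where 24.2% and 16.1% of all unigenes rose. The part of these genes, or of whatever separates the libraries along the second dimension, in the PPA1 values was not tested.

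With the second dimension as a further term, a fit chosen after seeing the data, PPA1 rose by 0.76 from young to intermediate (standard error 0.11, adjusted p = 0.0046 from limma) and by 0.76 from young to mature (standard error 0.11, adjusted p = 0.00033 from limma), and differed by -0.00 from intermediate to mature (adjusted p = 0.98 from limma). The term was taken from the same values that were tested. In that fit the calls of PEPC1 and PPDK were kept.

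**Figure D5:**
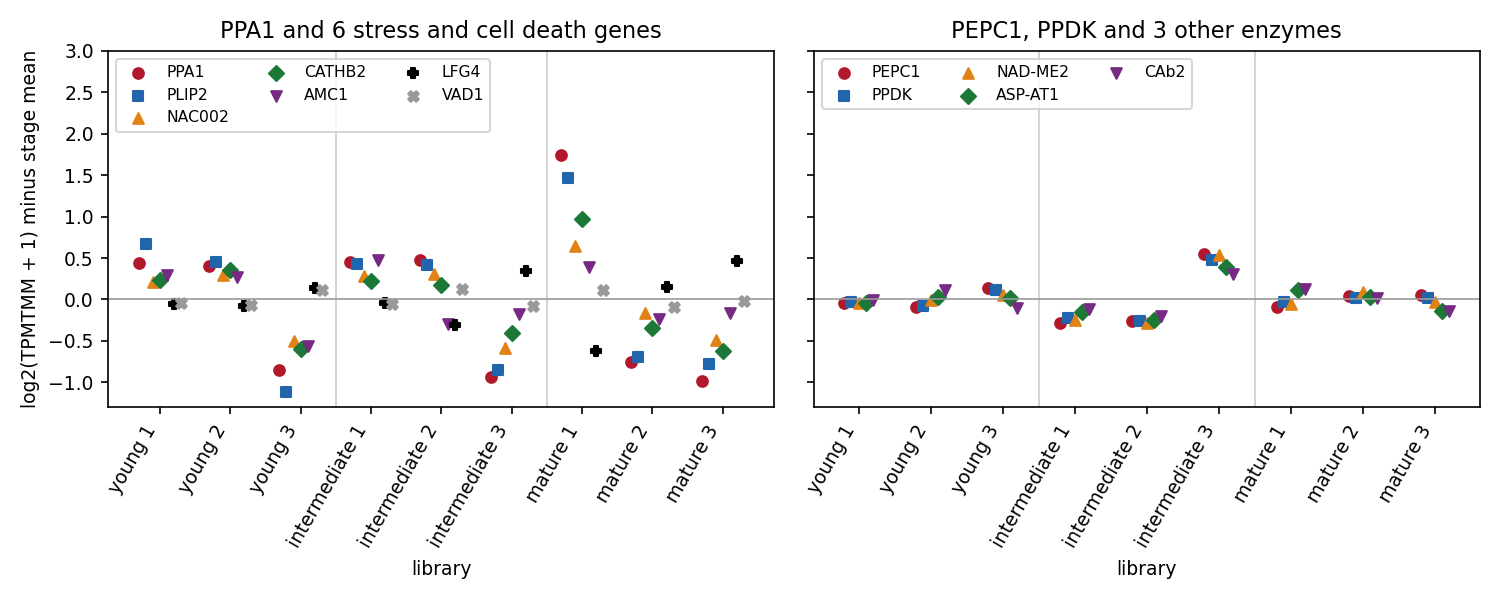
Deviation of log2(TPMTMM + 1) from the stage mean (y axis) in each of the 9 libraries (x axis) for PPA1 with all 6 listed stress and cell death genes and for PEPC1, PPDK and 3 other C4 enzymes, with vertical lines between stages. PLIP2, NAC002 and CATHB2 share the low libraries of PPA1 and its high value in mature 1, while LFG4 runs the other way; in the second panel intermediate 1 and 2 lie below 0 and intermediate 3 above it (-0.29, -0.26 and 0.54 for PEPC1).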

How the data were processed

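The authors trimmed reads with Trimmomatic, assembled all libraries with Trinity, quantified transcripts with RSEM, removed redundant transcripts and named unigenes by BLAST (versions not given in the sources used here). They deposited TPM of 36907 unigenes and TPMTMM of 11709. The latter equalled whole TPM plus 1, times 1 factor per library, in 11708 unigenes (tolerance 0.001). A low value is therefore raised and rounded, which matters little for PEPC1 and PPDK. No counts were used, so a count test could not be run and precision rests on 3 libraries per stage.

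Limma-trend 3.58.1 (R 4.3.3) was fitted to log2(TPMTMM + 1) from the 9 libraries, stage being its sole term, and checked on simulated data. The simulated noise was independent between unigenes and libraries, unlike the deviations that real unigenes shared along the second dimension. Ratios and TPM shares were tested with exact permutation over libraries (Python 3.11.15, numpy 2.4.6, pandas 2.3.3, matplotlib 3.10.9). Members, gene lists and alternatives were chosen with earlier results of these data known, and the second dimension as a term after seeing the data. Named genes are the 3 members, the list genes, and the unigenes and named genes most like each member by Pearson's r of log2 values. A library's replicate number was taken to pair young with intermediate leaves, since deviations from stage means correlated in every same-numbered pair (0.467, 0.445 and 0.696), though young 1 and 2 correlated better with intermediate 2 and 1 in turn. Pairs of mature 2 were negative (-0.476 and -0.427), so mature libraries were left unpaired.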

Additional observations from a re-analysis of the deposited data

How the results depend on the processing

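The rises of PEPC1 and PPDK into mature leaves kept direction and call in all settings, and other calls depended on them. Leaving out 1 library gave 1.69 to 2.10 (PEPC1) and 1.34 to 1.72 (PPDK) for intermediate to mature, and 2.80 to 2.91 and 2.53 to 2.63 for young to mature. For young to intermediate it gave 0.74 to 1.16 (PEPC1) and 0.86 to 1.23 (PPDK). PPA1 ranged from 0.49 to 1.38, from -0.97 to 0.39 and from -0.056 to 1.31 in the 3 comparisons, with no call. The first-step rise of PEPC1 was not called with upper-quartile scaling (0.97, adjusted p = 0.0518 from limma), all unigenes of the TPM table (1.01), a replicate block over the 9 libraries (1.01) or only 2 stages in the fit (1.01), and that of PPDK with all unigenes (1.10).

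At the first step 350 unigenes rose and 323 fell. These counts were 169 and 515 in TPM without scaling, 1510 and 1099 with the replicate block of 2 stages, 1313 and 896 with the second dimension, and 9 to 620 and 53 to 514 without 1 library (9 without young 2, 620 without mature 1). With all unigenes 106 rose, and with a mean of at least 10 TPMTMM 141 fell. From intermediate to mature 1886 rose and 1858 fell, against 772 and 5647 (TPM without scaling), 2854 and 3450 (all unigenes), 2847 and 2815 (second dimension) and 1237 to 2041 and 1286 to 1937 without 1 library. From young to mature 2829 rose and 2801 fell, against 1297 and 6663 (TPM without scaling) and 4854 and 6203 (all unigenes). In TPM without scaling the median unigene moved by -0.12, -0.43 and -0.57, and with upper-quartile scaling by -0.06, -0.11 and -0.19. With the replicate block of 2 stages PPA1 rose by 0.91 at the first step (called), and with the second dimension by 0.76 from young to intermediate and 0.76 from young to mature. The block, which was chosen on these same values, changed no other call of the 3 genes in the young to intermediate fit. Over the unigenes of the TPMTMM table alone, the share gained from young to mature was 1.07 percentage points for PEPC1 and 0.733 for PPDK, against 0.615 and 0.422 of all TPM, since the denominator holds fewer unigenes. The unknown number of reads behind each value and 3 libraries per stage limit all calls.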
